A study of Arabidopsis thaliana with 12 samples.

Results

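The response of erf114 mutant roots to methyl jasmonate (MeJA) was measured by comparing 3 RNA sequencing libraries of erf114 roots taken 3 h into MeJA treatment with 3 libraries of erf114 roots kept on Murashige and Skoog (MS) medium. These are 6 of the 12 libraries of the series, which holds the same 2 treatments of the Col accession. A gene was included when its level was at least 1 FPKM (fragments scaled by transcript length and library total) in at least 3 of the 6 erf114 libraries, which left 17905 of the 23719 genes listed. Both treatments used Arabidopsis thaliana seedlings sown on MS plates, held at 4 °C for 2 days and grown at 22 °C for 5 days. The MeJA group is therefore erf114, MeJA, 3 h, and the control group is erf114, MS, for which the labels give no time. The treatment protocol states 15 µM MeJA and the description of the series states 50 µM, so the dose is not settled. The labels name the mutant erf114 without its allele, the kind of mutation or the number of lines, and the Col groups differ from it in genotype alone as far as they say. They do not state whether replicates came from separate cultures, so p-values measure the spread between these libraries, which may be technical. Changes were tested with edgeR's quasi-likelihood test on the estimated counts, fitted over all 12 libraries, and a gene passed when its Benjamini-Hochberg adjusted p was under 0.05. A log2 fold change is MeJA against MS and is given ± its standard error (SE), whereas levels are in FPKM for each library in the order of replicates 1, 2 and 3.

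Jasmonate (JA) is a lipid-derived hormone of wounding and defence that also restrains root growth. Its conjugate with isoleucine joins the receptor COI1 to JAZ proteins, which are then degraded. The JAZ proteins otherwise hold MYC transcription factors inactive together with the adaptor NINJA, so hormone gain releases MYC targets, among them the JAZ genes themselves and the enzymes that make and break down JA. ERF114, ERF115 and ERF109 belong to group X of the ethylene response factors, a family of DNA-binding proteins, and the series asks how they act in JA signalling.

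Each of the 6 libraries held 20546417 to 20845685 estimated counts. The targeted gene did not separate the genotypes on MS, where ERF114 (AT5G61890) had 0, 1 and 1 counts in erf114 and 3, 0 and 0 counts in Col. On MeJA it had 13, 13 and 10 counts in erf114 and 59, 50 and 42 counts in Col, so ERF114 transcript was detected in the mutant. Other genes, chosen after their values were seen, marked the genotype in every library. AT4G29200 was listed at 0 to 0.14 FPKM in the 6 erf114 libraries and at 20.6 to 41.8 FPKM in the 6 Col libraries. QQS stood at 0.27 to 0.52 FPKM in erf114 and at 12.45 to 25.94 FPKM in Col. AT2G44500 stood at 130 to 217 FPKM in erf114 and at 27.5 to 63.7 FPKM in Col. The cause of these differences between the lines was not tested. Root markers were present throughout, with the 9 tested endodermis genes summing to 1466 to 1525 FPKM on MS and 1127 to 1296 FPKM on MeJA, and the 11 root hair genes to 418 to 505 and 386 to 443 FPKM. Leaf-type transcripts were also present, since 10 photosynthesis genes summed to 700 to 1390 FPKM on MS and 253 to 894 FPKM on MeJA, with the lowest sum in MeJA replicate 2. Seed storage transcripts set one control apart, with the 5 tested genes summing to 0.11 FPKM in MS replicate 1, to 43.5 to 81.7 FPKM in the other 5 erf114 libraries and to 0.15 to 1.82 FPKM in Col. By edgeR and by DESeq2 0 of the photosynthesis and seed storage genes passed, and 0 had an unadjusted p under 0.05. Their part in the results below was not tested. MS replicate 3 stood apart in stress and JA genes, so counts over all genes are given with and without it. Values without it are also given for many of the single genes that moved by more than 1.5-fold or changed call.

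MeJA changed 3364 genes of the 17905 tested, or 18.8%, in erf114. Of these 1816 rose (10.1%) and 1548 fell (8.65%), and 1653 (9.23%) changed at least 2-fold, with 990 rises and 663 falls. Changes of at least 16-fold were mostly rises, with 81 rises against 16 falls. Without MS replicate 3, 3122 genes (17.4%) passed, of which 1740 (9.72%) rose and 1382 (7.72%) fell. The lowest MeJA level was above the highest MS level, or the reverse, for 8775 genes (49%), so the lack of overlap between groups of 3 was common. Scaling set the balance of directions: rises were 54.0% of the calls after trimmed-mean (TMM) scaling and 23.3% when library totals alone were used, which moved the median log2 fold change of all genes from -0.01 to -0.31. Falls of small size are therefore relative to that scaling. The FPKM levels carry no TMM correction, so the count of genes without overlap and all levels below rest on library totals. TMM factors were 1.08 to 1.13 in the MS libraries and 0.82 to 0.99 in the MeJA libraries of erf114. Ratios of levels can therefore differ from the fold changes. In whole-root RNA, fewer cells of a type and less RNA per cell cannot be told apart.

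The promoters of 5 genes, 4 that rose and JAZ8 of the series title, are shown to display where the core MYC binding letters lie, and they were picked because they hold them. Many genes that rose hold neither motif in these 250 bases, among them AT2G38240, CLH1, VSP2, TET11, BGLU24, JAZ10 and OPR3. Each sequence is the 250 bases before the annotated gene start in TAIR10.1 (RefSeq), read 5′ to 3′ on the gene's strand. Capitals mark CACGTG (the G-box) and AACGTG, on either strand, so that AACGTG can appear as CACGTT.
JRG21, chr3:20769411-20769660, - strand: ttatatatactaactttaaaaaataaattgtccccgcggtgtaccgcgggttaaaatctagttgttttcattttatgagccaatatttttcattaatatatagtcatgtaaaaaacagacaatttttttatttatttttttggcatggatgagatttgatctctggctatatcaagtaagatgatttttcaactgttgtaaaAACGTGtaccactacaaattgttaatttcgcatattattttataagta
AT3G22275, chr3:7879811-7880060, - strand: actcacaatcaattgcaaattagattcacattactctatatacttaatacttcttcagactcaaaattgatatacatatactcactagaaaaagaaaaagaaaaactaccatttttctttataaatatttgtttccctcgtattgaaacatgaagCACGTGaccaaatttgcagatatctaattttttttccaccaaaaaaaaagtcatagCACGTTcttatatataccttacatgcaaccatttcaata
RAP2.6, chr1:16263555-16263804, + strand: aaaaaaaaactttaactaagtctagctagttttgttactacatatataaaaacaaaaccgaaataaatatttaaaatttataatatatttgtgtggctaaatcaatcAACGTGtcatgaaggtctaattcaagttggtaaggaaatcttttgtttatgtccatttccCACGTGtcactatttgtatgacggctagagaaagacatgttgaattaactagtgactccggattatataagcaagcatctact
PSK2, chr2:9737333-9737582, + strand: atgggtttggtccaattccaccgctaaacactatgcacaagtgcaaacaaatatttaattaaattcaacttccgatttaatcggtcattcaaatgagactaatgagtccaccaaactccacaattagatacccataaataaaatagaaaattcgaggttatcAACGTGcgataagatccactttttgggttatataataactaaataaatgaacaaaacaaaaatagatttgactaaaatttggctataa
JAZ8, chr1:10596102-10596351, + strand: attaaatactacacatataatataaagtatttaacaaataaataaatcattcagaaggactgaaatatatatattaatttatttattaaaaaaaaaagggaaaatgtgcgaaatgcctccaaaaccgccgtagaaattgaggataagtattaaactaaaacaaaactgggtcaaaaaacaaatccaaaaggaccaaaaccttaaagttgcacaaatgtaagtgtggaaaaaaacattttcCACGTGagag
In windows of 300 bases (250 before to 50 after the start), AACGTG was present in 22.9% of the genes that rose at least 2-fold, in 6.94% of those that fell at least 2-fold and in 9.29% of all genes tested. CACGTG was present in 15.1%, 6.64% and 8.92% of the same sets. Of the 15 largest rises 4 held AACGTG (26.7%) and 1 held CACGTG (6.67%). The GCC-box AGCCGCC, the letters bound by many ethylene response factors, was present in 1.22% of the genes that rose at least 2-fold. It was in 0.754% of those that fell at least 2-fold and in 0.795% of all genes tested. Of the 15 largest rises 1 held it (6.67%), as did 3 of the 81 genes that rose at least 16-fold (3.7%). Both strands were searched for each motif, and CACGTG and AACGTG share the letters ACGTG but are never the same match. Of the 13 JAZ genes, 5 held CACGTG and 5 held AACGTG. A match is a run of letters and not a measured binding site.

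The 15 largest rises were of varied function and included 2 genes of the JA breakdown list and 2 of the MYC branch of JA defence. JRG21, a 2-oxoglutarate oxygenase named as jasmonate-regulated, stood at 0.53, 0.25 and 0.24 FPKM on MS and at 95.3, 86.2 and 85.2 FPKM on MeJA, a log2 fold change of 8.31 ± 0.27 (adjusted p = 3.3e-09). AT2G38240, of the same oxygenase family, stood at 0.11, 0.08 and 0.57 FPKM on MS and at 89.5, 72.5 and 64.6 FPKM on MeJA, so its highest control was replicate 3. Its log2 fold change was 8.50 ± 0.48 (adjusted p = 1.5e-07), and 9.87 without that replicate. CLH1, a chlorophyllase and a classic JA-induced gene, rose from 0.42, 0.59 and 0.67 FPKM to 131, 106 and 141 FPKM (8.12 ± 0.37, adjusted p = 2.9e-08). BGLU24, a beta-glucosidase, rose from 0.35, 0.27 and 0.86 FPKM to 108, 110 and 101 FPKM (8.05 ± 0.33, adjusted p = 1.7e-08, and 8.71 without MS replicate 3). In all 4 genes the groups were far apart in every library, as the choice of large rises without overlap required. DIR5, a dirigent-like protein, reached 147, 156 and 155 FPKM from 2.58, 1.54 and 2.89 FPKM (6.33 ± 0.23, adjusted p = 8.8e-09).

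Some genes were at 0 on MS and gained a clear level. TET11, a tetraspanin membrane protein, had 0 counts in every MS library and 94, 104 and 109 counts on MeJA, at least 41.8-fold higher against a floor of 3 counts per library. FLP1, a flowering-promoting-factor-like protein, had 0 counts on MS and 61 on MeJA, at least 8.30-fold higher. PGL5, a 6-phosphogluconolactonase, had 2 counts over the MS libraries and 557 over the MeJA libraries, which is 341 times as many (95% interval from counting error 93.9 to 2820). Its MeJA levels were 10.8, 3.97 and 11.3 FPKM, so replicate 2 was the low one, as it was for the photosynthesis genes. LOX2, a lipoxygenase best known from leaves, showed the same split without entering the tests, at 4.73, 0.04 and 4.22 FPKM on MeJA and at 0.02 to 0.14 FPKM on MS. The link between these levels and shoot RNA was not tested.

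**Figure D1:**
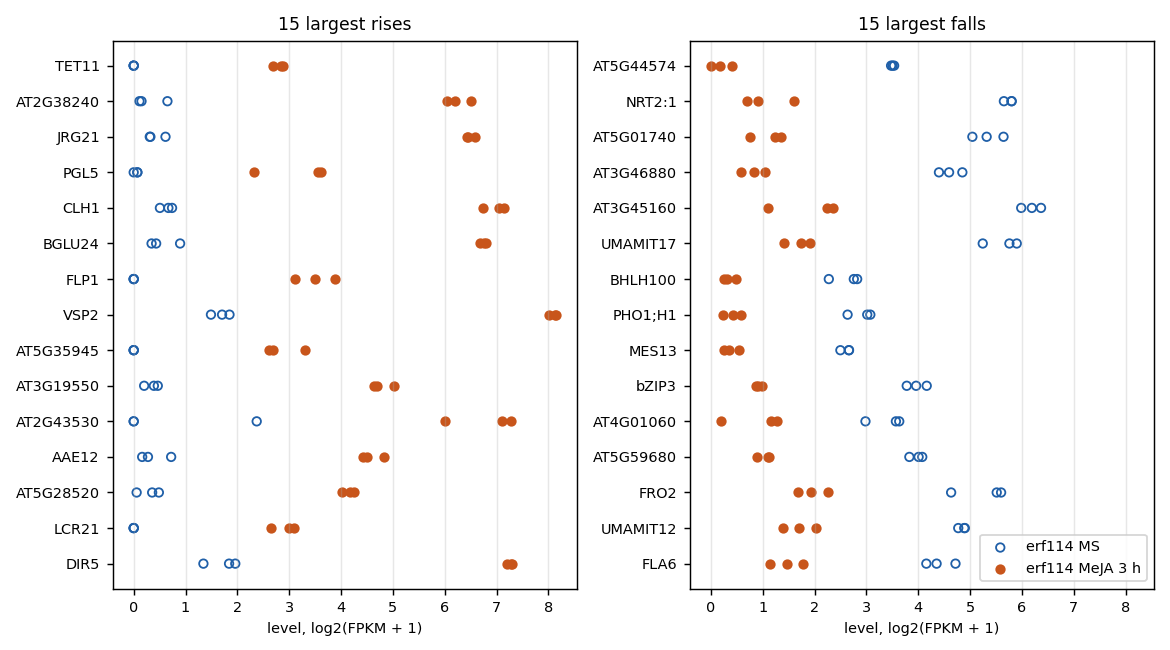
Levels of the 15 genes with the largest rises (left) and the 15 with the largest falls (right) among those that passed, had a mean of at least 5 FPKM in the higher group and did not overlap between groups. The x axis is log2(FPKM + 1), open circles are the 3 MS libraries and filled circles the 3 MeJA libraries of erf114. TET11 is at 0 in all MS libraries, and NRT2:1 goes from 49.3 to 54.8 FPKM on MS to 0.61 to 2.03 FPKM on MeJA.

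The largest falls included transporters and regulators of nutrient uptake. NRT2:1, the high-affinity nitrate transporter, stood at 54.8, 49.3 and 54.7 FPKM on MS and at 0.88, 2.03 and 0.61 FPKM on MeJA (-5.22 ± 0.33, adjusted p = 3.7e-07). UMAMIT17, a transporter of the amino acid exporter family, fell from 58.7, 53.2 and 36.9 FPKM to 2.35, 1.66 and 2.78 FPKM (-4.13 ± 0.26, adjusted p = 3.5e-07), and its relative UMAMIT12 fell from 26.3, 28.6 and 28.8 FPKM to 2.27, 3.08 and 1.61 FPKM. bZIP3, a basic leucine-zipper protein, fell from 14.6, 16.9 and 12.7 FPKM to 0.98, 0.83 and 0.87 FPKM (-3.72 ± 0.27). FLA6, a fasciclin-like arabinogalactan protein of the cell surface, fell from 19.5, 25.3 and 16.8 FPKM to 2.41, 1.77 and 1.21 FPKM. These genes were picked among those without overlap between the groups, so no MeJA library reached the lowest MS library in any of them by that choice.

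The 5 largest gains in FPKM were in AT4G22212, AT3G16420, PYK10, NSP1 and AT4G12545. AT4G22212, a defensin-like protein, went from 930, 830 and 953 FPKM to 7852, 7189 and 8269 FPKM (3.43 ± 0.20, adjusted p = 2.3e-07). The jacalin-type lectin AT3G16420 (PBP1, which joins the PYK10 enzyme complex) went from 2623 to 2668 FPKM on MS to 8933 to 9271 FPKM on MeJA (2.09 ± 0.16). NSP1, a nitrile specifier protein that steers glucosinolate breakdown, went from 561, 486 and 533 FPKM to 3643, 3182 and 4128 FPKM (3.11 ± 0.23), with part of its counts shared fractionally in all 6 libraries. AT4G12545, of the lipid-transfer and 2S albumin superfamily, went from 990, 1036 and 1014 FPKM to 3704, 4185 and 3991 FPKM (2.29 ± 0.13). The losses included water channels. TIP2;2, a channel of the vacuole membrane, fell from 1988, 1792 and 1701 FPKM to 587, 613 and 783 FPKM (-1.15 ± 0.24, adjusted p = 0.0041). The plasma membrane channel PIP2B stood at 2300, 2198 and 2101 FPKM on MS and at 1157, 1269 and 1098 FPKM on MeJA (-0.60 ± 0.15, adjusted p = 0.012), but missed the threshold without MS replicate 1 (adjusted p = 0.054).

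Genes of JA perception passed at about the share of all genes. Of the 11 tested genes for the receptor, corepressors and MYC or JAM factors, 2 rose by edgeR and DESeq2 called 4, and the list's median log2 fold change was 0.07, beside -0.01 over all genes. NINJA, the adaptor between JAZ proteins and corepressors, stood at 39.6, 44.8 and 40.7 FPKM on MS and at 72.3, 74.6 and 59.5 FPKM on MeJA (1.02 ± 0.09, adjusted p = 8e-06). AIB (JAM1), a bHLH repressor that competes with MYC2, stood at 2.00, 2.30 and 12.2 FPKM on MS and at 21.1, 26.9 and 17.4 FPKM on MeJA, and its log2 fold change of 2.28 ± 0.54 became 3.63 without MS replicate 3. The receptor gene COI1 had a log2 fold change of -0.10 ± 0.11 and the corepressor TPL one of -0.11 ± 0.12, neither past the threshold.

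All 8 JAZ genes that passed rose, of 13, with a median log2 fold change of 1.89 over the list. JAZ10, which marks JA responses and encodes splice forms that resist degradation, stood at 6.71, 9.81 and 40.7 FPKM on MS and at 399, 394 and 410 FPKM on MeJA (4.54 ± 0.71, adjusted p = 0.0006). AT3G22275, annotated as a jasmonate ZIM-domain protein, stood at 0.90, 1.18 and 5.48 FPKM on MS and at 45.2, 63.3 and 66.4 FPKM on MeJA (4.84 ± 0.57, adjusted p = 6.2e-05). Both are overlapped by another gene, as are NRT1.5, SHY2, TT4, APR1, CASP5, GL2, CYCD3;1 and WRKY40 below, and the sources do not say whether counting used strand. In JAZ10 and AT3G22275 MS replicate 3 was the high control and was still well below every MeJA library, and without it their log2 fold changes were 5.75 and 6.12. That was not so for JAZ8, the non-canonical JAZ named in the series title, which stood at 5.04, 10.2 and 47.9 FPKM on MS and at 98.3, 31.8 and 55.7 FPKM on MeJA. Its groups overlapped because MS replicate 3 exceeded MeJA replicate 2 (1.89 ± 0.82, adjusted p = 0.15). JAZ7, its close relative, overlapped in the same way, with 89.3 FPKM in MS replicate 3 against 56.6 FPKM in MeJA replicate 2.

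**Figure D2:**
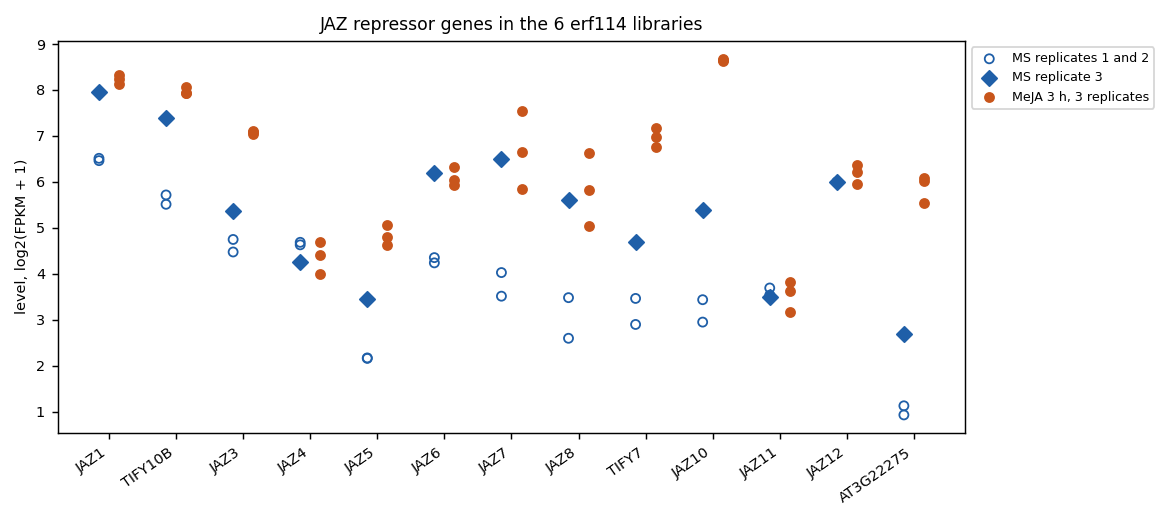
Levels of the 13 JAZ genes in the 6 erf114 libraries, as log2(FPKM + 1). Open circles are MS replicates 1 and 2, diamonds MS replicate 3 and filled circles the 3 MeJA replicates, with TIFY10B and TIFY7 the reference names of JAZ2 and JAZ9. For JAZ8 the diamond (47.9 FPKM) lies among the MeJA libraries (31.8 to 98.3 FPKM), and for JAZ10 it lies between the groups (40.7 FPKM).

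Genes of JA synthesis and breakdown mostly rose. Of 15 tested synthesis genes 8 rose and 1 fell (median log2 fold change 1.55), and of 9 tested breakdown genes 7 rose (median 2.55). OPR3, the reductase of the JA precursor OPDA, stood at 46.7, 43.3 and 91.1 FPKM on MS and at 269, 186 and 212 FPKM on MeJA (2.22 ± 0.32, adjusted p = 0.00035). The lipoxygenases LOX3 and LOX4, which start the pathway, had log2 fold changes of 2.55 ± 0.97 and 2.16 ± 0.84 and missed the threshold (adjusted p = 0.097 and 0.10), but passed without MS replicate 3 (4.19 and 3.51). JAR1, which joins JA to isoleucine, fell by 0.32 on the log2 scale (adjusted p = 0.037), a call lost when any library except MeJA replicate 3 was left out (adjusted p 0.083 to 0.11). CYP94B3, which inactivates the JA conjugate, stood at 14.1, 18.1 and 90.8 FPKM on MS and at 227, 41.4 and 80.4 FPKM on MeJA. It was another gene whose groups overlapped through MS replicate 3. Without that replicate all 9 tested breakdown genes rose, CYP94B3 among them.

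The MYC branch of JA defence rose in full and the ERF branch in part. All 5 tested genes of the MYC branch rose, and VSP2, a vegetative storage protein, led them with CLH1, at 2.26, 2.6 and 1.81 FPKM on MS and 280, 256 and 283 FPKM on MeJA (7.24 ± 0.20). Of 7 tested ERF-branch genes 2 rose and 1 fell. PDF1.2b, a plant defensin, had 0 counts in every MS library and 43 on MeJA, at least 5.85-fold higher. ERF1, an activator of this branch, stood at 1.26, 1.13 and 2.38 FPKM on MS and at 4.96, 2.1 and 5.26 FPKM on MeJA (1.70 ± 0.42, adjusted p = 0.012), a call lost without MS replicate 1, MS replicate 2 or MeJA replicate 3 (adjusted p 0.052 to 0.062). ORA59, another activator of the branch, fell from 7.30, 8.56 and 6.62 FPKM to 0.73, 0.80 and 1.27 FPKM (-2.68 ± 0.29, adjusted p = 3.2e-05).

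Of the group X factors, the family of the mutated gene, 3 of 5 tested rose. RAP2.6 stood at 14, 12.9 and 24.5 FPKM on MS and at 201, 222 and 132 FPKM on MeJA (3.72 ± 0.26, adjusted p = 7.2e-07). Rap2.6L, known for its part in regrowth after cutting, stood at 7, 5.89 and 6.61 FPKM on MS and at 43.3, 36.7 and 39.4 FPKM on MeJA (2.92 ± 0.15, adjusted p = 6.6e-08). ERF109 (symbol RRTF1 in the reference) stood at 18.7, 27.9 and 155 FPKM on MS and at 140, 44.8 and 69.5 FPKM on MeJA (0.66 ± 0.75, adjusted p = 0.66). Its highest FPKM was in MS replicate 3, which with TMM scaling lies below MeJA replicate 1. ERF115 was close to absent, with 0, 1 and 1 counts on MS and 3, 3 and 1 on MeJA, and was not tested. Summed counts of ERF114 were 22.0 times as high on MeJA as on MS (95% interval from counting error 5.67 to 189). Of 6 tested phytosulfokine genes, which encode growth peptides or, in PSKR1, their receptor, 4 rose and 1 fell. PSK2 led the rises, from 26.5, 23.2 and 48.1 FPKM to 429, 331 and 318 FPKM (3.78 ± 0.37). The fall, in PSK3 (-0.86 ± 0.25, adjusted p = 0.031), was lost without any library except MeJA replicate 2 (adjusted p 0.067 to 0.10).

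Genes that make tryptophan and its indole defence products rose, whereas auxin genes did not. Of 9 tested tryptophan synthesis genes 8 rose (median log2 fold change 1.96), with ASA1, the feedback-controlled entry enzyme, at 15.2, 15.5 and 24.6 FPKM on MS and 82.0, 97.7 and 67.7 FPKM on MeJA (2.45 ± 0.18). Of 19 indole glucosinolate genes 16 rose and 1 fell (median 1.56). IGMT5, a methyltransferase of these glucosinolates, stood at 261, 240 and 309 FPKM on MS and at 1351, 1542 and 1355 FPKM on MeJA (2.69 ± 0.14). CYP81F4, the hydroxylase of the same branch, stood at 423, 405 and 443 FPKM on MS and at 1936, 2328 and 1882 FPKM on MeJA (2.57 ± 0.12). The one that fell was CYP81F2, the hydroxylase of the other ring position, at 2.07, 1.78 and 1.85 FPKM on MS and 0.85, 0.66 and 0.62 FPKM on MeJA (-1.12 ± 0.23, adjusted p = 0.0046). ASA1, IGMT5 and CYP81F4 each share their place with an overlapping gene.

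For auxin itself, 0 of 6 tested synthesis genes rose and 2 fell by edgeR's test, 0 rose at an unadjusted p under 0.05, and DESeq2 gave 0 rises and 3 falls. TAR2, a tryptophan aminotransferase of the main auxin route, fell from 5.55, 6.54 and 5.01 FPKM to 1.97, 1.76 and 1.94 FPKM (-1.28 ± 0.16, adjusted p = 0.00012). The other fall, in YUC9, was lost without MS replicates 1 or 2 or MeJA replicates 1 or 3 (adjusted p 0.07 to 0.15). Of 12 auxin response genes 5 fell, among them SHY2 (IAA3), a repressor of auxin response that limits the root meristem, from 29.2, 31.4 and 29.0 FPKM to 8.84, 11.4 and 6.76 FPKM (-1.44 ± 0.13). PIN7, an auxin exporter, fell from 23.6, 24.9 and 24.8 FPKM to 10, 13.7 and 9.49 FPKM (-0.85 ± 0.11), one of 2 falls among 9 transport genes. The other fall, in LAX2, was lost without MS replicates 1 or 2 or MeJA replicates 1 or 2 (adjusted p 0.057 to 0.09). Both falls were under 2-fold after TMM scaling, and with library totals alone 5 transport genes fell. ARR3, a type-A response regulator that dampens cytokinin signalling, fell from 58.9, 54.4 and 59.1 FPKM to 19.2, 27.1 and 26 FPKM (-0.95 ± 0.21, adjusted p = 0.0065), one of 2 falls among 9 such genes, of which the other, ARR15, was lost without any library except MeJA replicate 2 (adjusted p 0.05 to 0.15).

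Every tested gene of the PYK10 and triterpene lists rose. The list of PYK10 (a root beta-glucosidase) and its ER body partners rose in all 10 members, with a median log2 fold change of 1.89. BGLU22, a beta-glucosidase akin to PYK10, stood at 199, 208 and 232 FPKM on MS and at 1409, 1865 and 1117 FPKM on MeJA (3.07 ± 0.20). All 5 tested triterpene cluster genes rose as well. MRN1, the marneral synthase, stood at 7, 3.63 and 7.15 FPKM on MS and at 106, 108 and 103 FPKM on MeJA (4.45 ± 0.27), and THAS1, the thalianol synthase, at 35.2, 35.2 and 45.2 FPKM and at 527, 664 and 430 FPKM (4.10 ± 0.21). Of 6 flavonoid genes 5 rose, with TT4, chalcone synthase, at 319, 298 and 282 FPKM on MS and 740, 624 and 772 FPKM on MeJA (1.57 ± 0.23). By contrast, 2 of 10 aliphatic glucosinolate genes rose and 2 fell, and CYP83A1, the oxime-metabolising step of that branch, fell from 50.9, 42.3 and 37.4 FPKM to 14.2, 11.2 and 12.8 FPKM (-1.47 ± 0.16). One call in each direction, BCAT4 up and MAM1 down, was lost without MS replicate 3 (adjusted p = 0.13 and 0.055). BCAT4 was also lost without MS replicate 2 or MeJA replicates 1 or 3 (adjusted p 0.13 to 0.18), and MAM1 without MS replicate 1 or MeJA replicate 1 (adjusted p 0.053 to 0.09).

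Nutrient genes split by element. Of 11 sulfate genes 10 rose (median log2 fold change 1.5), with APR1, the reductase of activated sulfate, at 40.7, 38.3 and 36.8 FPKM on MS and 126, 176 and 136 FPKM on MeJA (2.21 ± 0.12). AKN2 (APK2), the kinase that makes the sulfate donor for glucosinolates, stood at 150, 122 and 183 FPKM on MS and at 695, 723 and 688 FPKM on MeJA (2.51 ± 0.20). The single fall, in the uptake transporter SULTR1;1 (-0.89 ± 0.24, adjusted p = 0.019), was lost without MS replicate 1 or MeJA replicate 2 (adjusted p = 0.063 and 0.068). Of 15 iron genes 9 fell and 1 rose (median -1.60). FRO2, the ferric reductase of the root surface, fell from 23.8, 44.7 and 47.5 FPKM to 2.21, 3.79 and 2.83 FPKM (-3.41 ± 0.30), and the partner transporter IRT1 fell by 3.09 on the log2 scale (SE 0.28). BHLH100, an iron-deficiency regulator, fell from 3.84, 6.07 and 5.76 FPKM to 0.24, 0.39 and 0.19 FPKM (-4.12 ± 0.35). FRU (FIT), the upstream activator of FRO2 and IRT1, had a log2 fold change of -0.25 ± 0.16 (adjusted p = 0.37). Of 11 nitrate and ammonium genes 7 fell, and 1, AMT1;2, rose in a call that was lost without MS replicate 3 or MeJA replicate 3 (adjusted p = 0.076 and 0.078). NRT1.5, which loads nitrate into the xylem, fell from 180, 205 and 159 FPKM to 17.9, 22.9 and 11.7 FPKM (-3.09 ± 0.25). In the phosphate list PHO1, which exports phosphate to the xylem, fell from 104, 120 and 95.2 FPKM to 41.1, 45.3 and 36.4 FPKM (-1.08 ± 0.16).

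**Figure D3:**
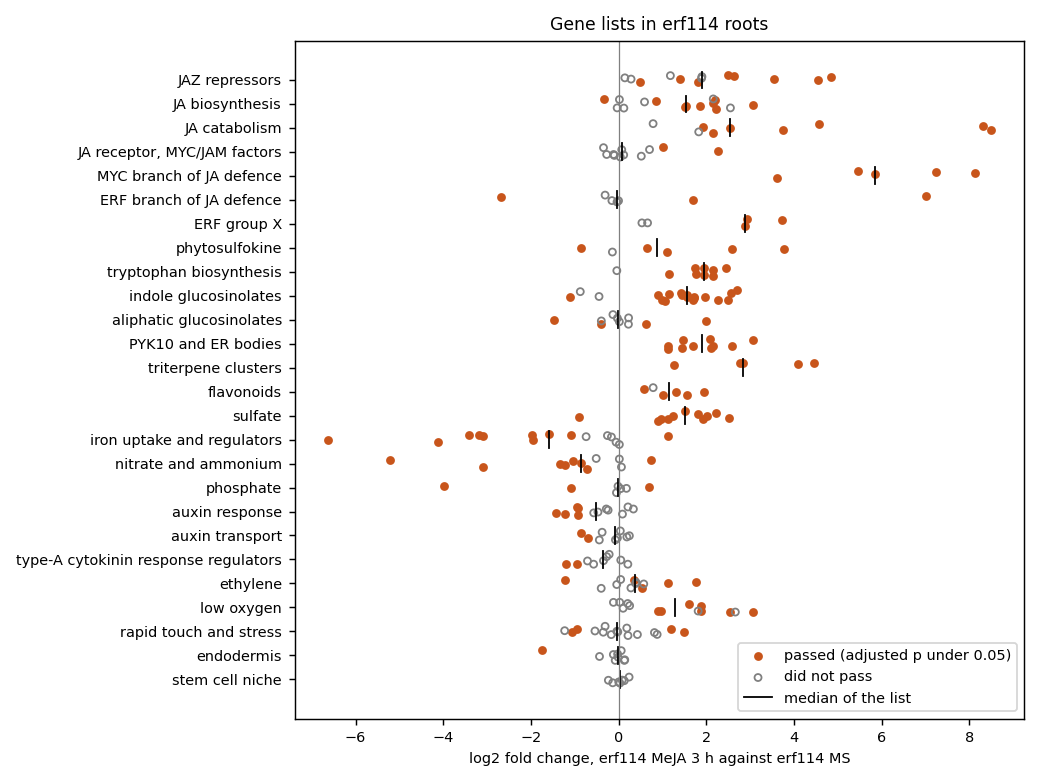
Log2 fold change, MeJA 3 h against MS, of each tested gene in 26 of the 36 lists in erf114 roots. Filled points passed, open points did not, and black bars are list medians. The PYK10 and triterpene lists lie wholly to the right of 0, 10 of 11 sulfate genes are filled on the right, and 9 of 15 iron genes are filled on the left.

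The counts of the cell-type lists stand beside 18.8% of all genes tested that passed, with 10.1% rising and 8.65% falling. The lists' own shares were not tested against these. In the endodermis list CASP5, a membrane protein that marks the Casparian strip, fell from 36.7, 46.2 and 45.9 FPKM to 9.72, 11.9 and 9.62 FPKM (-1.74 ± 0.12, adjusted p = 7.1e-07). None of the other 8 tested genes passed. With library totals alone 3 of the 9 fell, where 3918 of all 17905 genes did. CASP1 had a log2 fold change of 0.06 ± 0.20. GL2, which represses root hair fate, stood at 7.64, 7.44 and 6.63 FPKM on MS and 3.24, 4.25 and 3.45 FPKM on MeJA (-0.68 ± 0.14), the one of 11 root hair genes to pass. CYCD3;1, a D-type cyclin, fell from 10.7, 11.6 and 10.8 FPKM to 5.09, 4.15 and 4.98 FPKM (-0.90 ± 0.14), the one of 12 cell cycle genes to pass. Of 5 phloem genes 3 rose, by less than 2-fold each, and 2 rose without MS replicate 3, while with library totals alone 0 of them passed. No gene of the stem cell niche (7 tested), root cap (3) or xylem (7) list passed in edgeR, where 0, 2 and 2 had an unadjusted p under 0.05, and DESeq2 gave 1 fall in the xylem list and 0 calls in the others.

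MS replicate 3 held the most genes that were high in a single library of its group. It held 203 genes at least 2-fold above both other MS libraries, where MS replicates 1 and 2 held 4 and 22 such genes and the MeJA libraries 77, 35 and 23. In the opposite direction it held 11, against 30 and 6 for the other MS libraries and 10, 117 and 54 for the MeJA libraries. By a chi-square of the counts over genes, it differed from the other MS libraries by 20.9 and 21.1 per gene and these from each other by 8.5, whereas the MeJA libraries differed among themselves by 23.6 to 52.0. Of the 203 genes, 57 (28.1%) rose at least 2-fold on MeJA in Col, beside 5.15% of all genes tested, and 6 fell in Col. MeJA replicate 1 was the highest MeJA library for 170 of the 203, although it was the highest for 3524 of all 17905 genes. The 16 tested touch and rapid stress genes had a mean log2(FPKM + 1) of 6, 5.71 and 6.72 in MS replicates 1 to 3 and of 6.11, 5.40 and 6.16 on MeJA. JAZ genes had means of 3.93, 4.02 and 5.31 on MS and of 6.5, 6.27 and 6.22 on MeJA. The replicate thus lay toward the MeJA libraries in JAZ genes, while in touch genes it was the highest of the 6. Whether handling, time of harvest or hormone set it apart was not tested.

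The genes with the largest excess in MS replicate 3 included WRKY38, FAMT and AT1G76640, beside JAZ7, CYP94B3 and ERF109 above. WRKY38, a defence regulator, stood at 0.67, 0.77 and 7.53 FPKM on MS and at 6.55, 2.30 and 2.09 FPKM on MeJA. FAMT, a farnesoic acid methyltransferase, stood at 0.99, 1.81 and 11.6 FPKM on MS but at 90.0, 64.5 and 60.1 FPKM on MeJA, and passed with the replicate (4.2 ± 0.76, adjusted p = 0.0017) and without it (5.98, adjusted p = 4.3e-05). AT1G76640, a calcium-binding EF-hand protein, stood at 12.9, 14.6 and 72.0 FPKM on MS and at 226, 146 and 152 FPKM on MeJA (2.72 ± 0.60, and 4.01 without the replicate). In 127 of the 203 genes MS replicates 1 and 2 were both below every MeJA library. The 203 were chosen for low MS replicates 1 and 2 beside replicate 3, which favours such a count. Its share over all genes tested was not taken, so the 127 describe these genes only.

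Leaving out MS replicate 3 moved more genes by over 1.5-fold than leaving out any other erf114 library. Its numbers of calls lost and gained lay within the range of the other libraries. Of the 3364 genes, 2876 passed again without MS replicate 3, 488 were lost and 246 were gained, and none of the genes that passed changed direction. For comparison, leaving out another single erf114 library lost 434 to 844 genes and gained 22 to 376. Among the genes that passed, 71 moved by more than 1.5-fold without MS replicate 3, against 7 without MS replicate 1, 7 without MS replicate 2 and 13, 27 and 14 without the MeJA replicates, and 70 of the 71 were rises that became larger. Of the 488 lost genes 419 had changed less than 2-fold, and at least 2-fold changes numbered 1746 instead of 1653. Most sizes moved little: over the 3364 genes the median absolute shift in log2 fold change was 0.061 without MS replicate 3. It was 0.048 to 0.079 without another single erf114 library.

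Counts of rises went up in several JA lists without the replicate. Without it 11 of 13 JAZ genes rose instead of 8, and the list's median log2 fold change went from 1.89 to 2.80. Rises went from 8 to 11 of 15 synthesis genes, from 7 to 9 of 9 breakdown genes, from 2 to 3 of 11 perception genes and from 3 to 4 of 5 group X genes, while the MYC branch kept 5 of 5. Outside the JA lists, the low-oxygen list went from 7 to 9 rises of 14. MYC2, the leading JA transcription factor, stood at 86.3, 70.7 and 162 FPKM on MS and at 137, 158 and 130 FPKM on MeJA, so its log2 fold change went from 0.70 ± 0.25 (adjusted p = 0.072) to 1.14 (adjusted p = 0.00054). JAZ8 went from 1.89 to 3.37 (adjusted p = 0.015) and ERF109 from 0.66 to 2.2 (adjusted p = 0.037). JAZ6 stood at 19.4, 17.9 and 71.8 FPKM on MS and at 79.1, 64.3 and 59.6 FPKM on MeJA, and went from 1.18 (adjusted p = 0.11) to 2.14 (adjusted p = 0.00046). MYC2 and ERF109 each have a gene on their other strand or in overlap.

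Several defence and nutrient lists had the same counts without it. Without the replicate all 10 PYK10 and ER body genes, all 5 triterpene genes, 16 indole glucosinolate genes, 8 tryptophan genes and 10 sulfate genes rose, the same numbers as with it, and 9 iron and 7 nitrate and ammonium genes fell, again the same numbers. The single rises of the nitrate and phosphate lists, in AMT1;2 and PHT1;1, were lost without it, PHT1;1 (0.70 ± 0.22, adjusted p = 0.044) also without any other library except MS replicate 1 (adjusted p 0.057 to 0.15), and the aliphatic glucosinolate list went from 2 rises and 2 falls to 1 and 1. In the touch and rapid stress list, with 16 tested, 2 rose and 2 fell with it and 4 rose and 1 fell without it. The 2 rises were WRKY40, a WRKY regulator, at 44.7, 43.1 and 170 FPKM on MS and 259, 154 and 173 FPKM on MeJA (1.5 ± 0.47, adjusted p = 0.044, and 2.47 without MS replicate 3), and RHL41 (ZAT12), a zinc finger protein (1.21 ± 0.34, adjusted p = 0.026). Both rises were lost without MS replicate 1, MS replicate 2, MeJA replicate 1 or MeJA replicate 3, where adjusted p ran from 0.056 to 0.16.

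**Figure D4:**
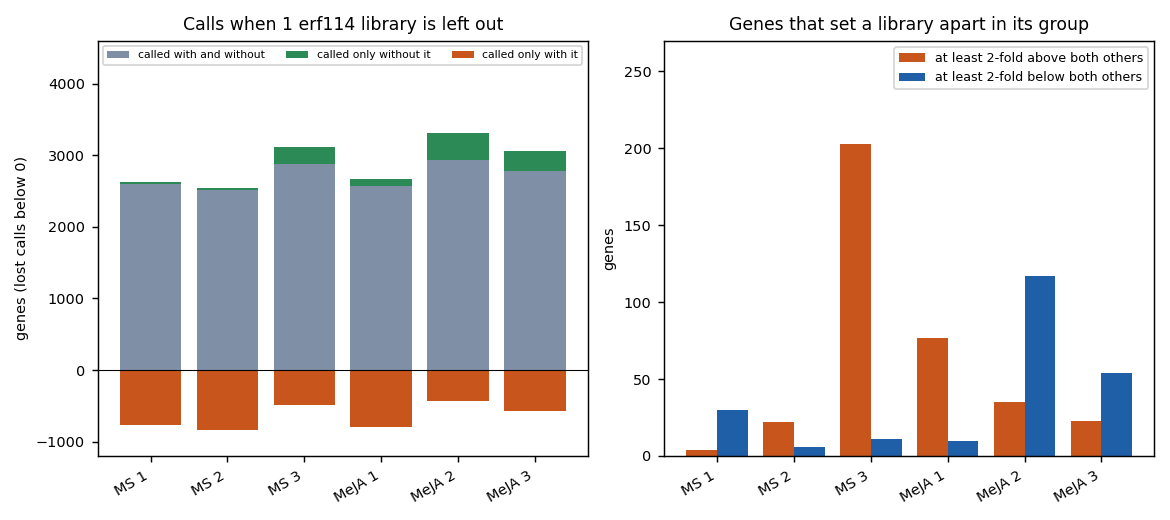
Left, numbers of genes that passed with and without each of the 6 erf114 libraries in turn, with genes called only without the library stacked on top and genes called only with it drawn below 0. Right, numbers of genes at least 2-fold above or below both other libraries of the same group. MS replicate 3 has the tallest bar on the right (203 genes), while its lost calls on the left (488) are fewer than for MS replicates 1 and 2 (769 and 844).

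The response of erf114 was compared with that of Col, which shares no libraries with it. Of the 1653 genes that changed at least 2-fold in erf114, 1636 (99.0%) had the same direction in Col fitted on its own libraries and 1425 (86.2%) also passed there, where 19.6% of all genes passed. When each genotype was fitted alone, 2907 genes passed in erf114 and 3514 in Col, and 2154 were shared, 74.1% of the first and 61.3% of the second. A gene that passes in one genotype only is not thereby different, so the difference was tested in the joint fit. In that test 5 genes (0.0279%) passed, 1083 had an unadjusted p under 0.05, and DESeq2 called 43. The number was 0 to 8 when single libraries were left out, with 0 calls without any one of Col MS replicate 3, the 3 Col MeJA libraries, erf114 MS replicates 1 and 2 or erf114 MeJA replicate 1.

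All 5 genes rose in erf114, and their log2 fold change there was above that in Col. In Col the FPKM levels of FTM1, ETR2 and AT1G77330 were lower on MeJA than on MS. FTM1 (SAD6), a stearoyl-ACP desaturase induced by low oxygen, stood at 8.92, 6.10 and 8.25 FPKM on MS and at 38.8, 31.0 and 38.4 FPKM on MeJA in erf114, against 12.3, 7.99 and 10.4 FPKM and 7.65, 5.80 and 5.68 FPKM in Col. Its log2 fold change was higher in erf114 than in Col by 3.17 ± 0.38 (adjusted p = 0.021). ETR2, an ethylene receptor, stood at 6.43, 7.04 and 4.41 FPKM on MS and at 15.4, 13.8 and 19.4 FPKM on MeJA in erf114, against 6.63, 8.36 and 7.08 FPKM and 4.15, 4.62 and 3.55 FPKM in Col, a difference of 2.53 ± 0.30 (adjusted p = 0.021). In both genes the erf114 MeJA libraries stood above all other libraries of the series. ELIP1, a chlorophyll-binding protein induced by light stress, stood at 10.7, 12.1 and 16.8 FPKM on MS and at 85.2, 56.4 and 72.7 FPKM on MeJA in erf114, against 13.0 to 17.4 FPKM and 15.7 to 16.7 FPKM in Col, a difference of 2.65 ± 0.34 (adjusted p = 0.021). The 10 photosynthesis genes, which do not include ELIP1, summed to 368 to 727 FPKM in the Col MeJA libraries and 253 to 894 FPKM in the erf114 MeJA libraries. Their part in ELIP1 was not tested.

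AT2G39980, an HXXXD-type acyltransferase, stood at 2.73, 2.34 and 2.85 FPKM on MS and 7.77, 6.59 and 8.21 FPKM on MeJA in erf114, with a difference of 2.38 ± 0.30 from Col. AT1G77330, a 2-oxoglutarate oxygenase, was the smallest, at 157, 162 and 155 FPKM on MS and 191, 180 and 166 FPKM on MeJA in erf114, and at 162, 193 and 187 FPKM and 111, 122 and 122 FPKM in Col, with a difference of 1.02 ± 0.13. Both are overlapped by a gene on the opposite strand.

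FTM1 and ETR2 are members of the low-oxygen and ethylene lists, in each of which 1 gene passed the test of the difference between genotypes. The lists' own difference was not tested. In the low-oxygen list of 14 tested genes, 7 rose and 0 fell in erf114 (median log2 fold change 1.29), while 1 rose and 2 fell in Col (median -0.05), where 22% of all genes passed. AT4G33070 (PDC1), pyruvate decarboxylase, stood at 15.5, 14 and 20.3 FPKM on MS and at 112, 128 and 98.7 FPKM on MeJA in erf114 (3.06 ± 0.20), and its difference from Col was 1.47 ± 0.26 (adjusted p = 0.19, DESeq2 adjusted p = 0.00044). For AT5G39890 (PCO2), a plant cysteine oxidase of oxygen sensing, the log2 fold change was 1.88 ± 0.30 in erf114 and the difference 2.12 ± 0.44 (adjusted p = 0.32, DESeq2 adjusted p = 0.0085). ADH1, alcohol dehydrogenase, had a log2 fold change of -0.12 ± 0.35 and a difference of 0.57 ± 0.49, neither past the threshold. In the ethylene list of 12 genes, 4 rose and 1 fell in erf114 (3 and 1 without MS replicate 3) and 2 rose and 5 fell in Col. EBF2, an F-box protein that removes the ethylene factor EIN3, differed between the genotypes by 1.96 ± 0.36 (adjusted p = 0.19, DESeq2 adjusted p = 0.00054). MYB12, a regulator of flavonol genes, differed by 1.45 ± 0.22 (adjusted p = 0.071, DESeq2 adjusted p = 8.3e-06). EBF2 and MYB12 were picked out after their values were seen.

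**Figure D5:**
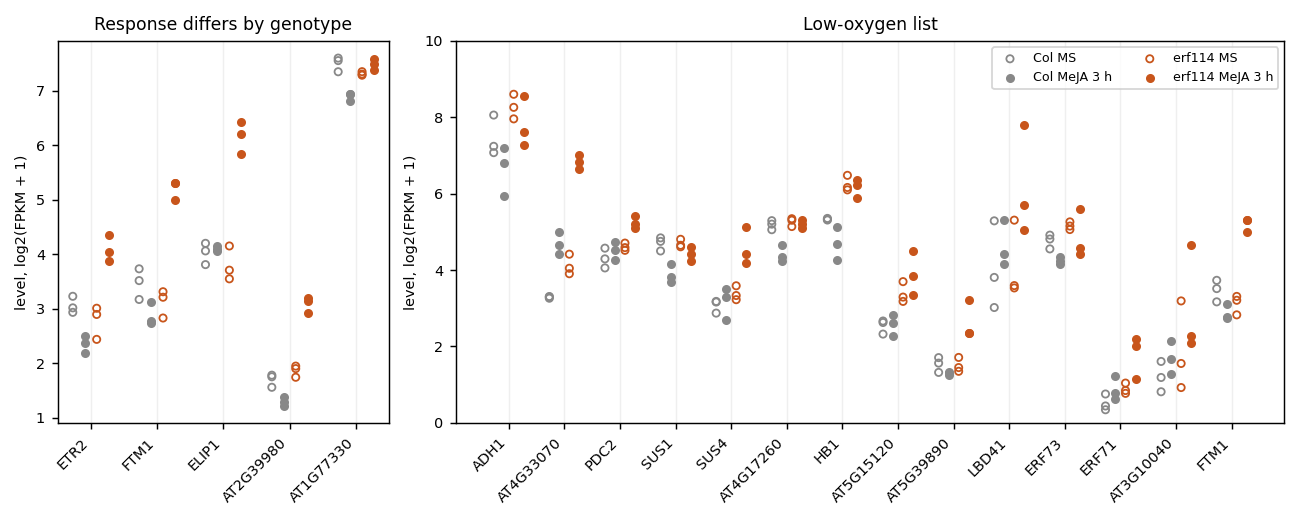
Levels, as log2(FPKM + 1), of the 5 genes whose MeJA response differed between the genotypes (left) and of the 14 tested low-oxygen genes (right). Grey is Col and orange erf114, open circles are the 3 MS and filled circles the 3 MeJA libraries of each. For FTM1 and ETR2 the filled orange points (31.0 to 38.8 and 13.8 to 19.4 FPKM) lie above all others.

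Of the 13 JAZ genes 0 passed the test of the difference between genotypes, and their precision varied. The SE of the difference ran from 0.12 for JAZ12, with a difference of -0.18, to 1.17 for JAZ7. The difference in response was 0.43 ± 1.14 on the log2 scale for JAZ8, -0.21 ± 0.88 for JAZ10 and -0.36 ± 0.35 for MYC2, with adjusted p of 0.87, 0.92 and 0.67. With errors of this size a difference of 2-fold in JAZ8 or JAZ10 was not detectable in 3 libraries a group. Rap2.6L differed by 0.77 ± 0.20 and ABR1, another group X factor, by 1.04 ± 0.45, each with adjusted p = 0.63.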

How the data were processed

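Per the labels, the libraries are root transcriptomes. The authors deposited 1 table per library. Per the file headers it holds read counts, FPKM and TPM for each gene; since 1.58 to 1.67% of the values in the count column were fractional in the erf114 libraries, the deposited counts are estimated counts, here rounded to integers. Deposited FPKM values served for the filter and for levels, and deposited TPM values only to find the smallest value listed (0.01). Genes missing from a table were set to 0. For the aligner, build, counting tool and strandedness, the labels hold no entry (not given in the sources used here), so reads of overlapping genes cannot be told apart. All 23719 gene identifiers matched TAIR10.1 (RefSeq), which gave names, coordinates and promoters.

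The test was edgeR 4.0.16 in R 4.3.3: TMM factors, 17905 genes, 4 group means, 8 residual degrees of freedom, a biological coefficient of variation of 17.8%, with p-values from the quasi-likelihood F test adjusted by Benjamini and Hochberg (threshold 0.05). The SE was taken from the log2 fold change and the F statistic (ratio of the first to the root of the second). DESeq2 1.42.0 and limma 3.58.1 on log2(FPKM + 1) and log2(FPKM + 0.1) were alternatives, as were other scalings, filters, sample sets, a replicate block and leaving out libraries. Floors (3 counts per library) and exact 95% intervals cover counting error only.

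The genes named are the 15 largest rises and 15 largest falls among genes that passed, had a mean of at least 5 FPKM in the higher group and did not overlap; the 5 largest gains and losses in FPKM; ERF114, ERF115, ERF109 and JAZ8; up to 2 rises and 2 falls per list; the genes whose response differed between genotypes; and the genes that set MS replicate 3 apart or passed only without it. Other list members and the markers of library origin were chosen after their values were seen. The 36 lists hold 359 genes, of which 332 were tested and 160 passed. The members and lists were chosen with earlier results of these data known. For 13 list genes the reference does not give the common name.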

Additional observations from a re-analysis of the deposited data

Results flagged for a closer look

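In 5 genes the MeJA response differed between erf114 and Col in edgeR's interaction test, each with an adjusted p of 0.021. The difference, erf114 minus Col on the log2 scale, was 3.17 for FTM1, 2.53 for ETR2, 2.65 for ELIP1, 2.38 for AT2G39980 and 1.02 for AT1G77330. The AT1G77330 call was lost with library totals alone (0.79, adjusted p = 0.12) and in both limma fits (adjusted p = 0.10 and 0.12), and each of the 5 calls was lost when some single libraries were left out. In each gene all 3 erf114 MeJA libraries were above all 3 erf114 MS libraries. Such a lack of overlap, in either direction, held for 8775 (49%) of all genes tested, and it does not bear on the difference from Col.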

How the results depend on the processing

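No result that passed changed direction under the alternatives run, and of the 112 named genes that passed, 93 to 112 passed again, except that a filter on mean FPKM left 92 to test. With library totals alone 5105 genes passed (1187 higher, 3918 lower), with limma on log2(FPKM + 1) 5351 (1193 and 4158) and on log2(FPKM + 0.1) 5269 (1176 and 4093); these make no TMM correction, and the median of all genes was then -0.31, -0.28 and -0.32. A mean FPKM of at least 5 left 12890 genes to test and 1074 changed at least 2-fold. Leaving out single erf114 libraries gave 2542 to 3306 changed genes. With the erf114 libraries alone and without MS replicate 3, an alternative chosen after seeing the data, 957 genes fell. The interaction count was 43 with DESeq2 and 0 to 8 without single libraries; the cause was not tested. At this depth and with 3 libraries a group, genes of few counts and small differences were not resolved.

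Replicate numbers did not pair the erf114 libraries, since deviations from the group means correlated at -0.27, 0.15 and -0.32 for equal numbers. A replicate block within genotype gave 3216 changed genes and 2 interaction calls, with adjusted p of 0.19 for ETR2, 0.06 for ELIP1 and 0.19 for AT1G77330; on the 6 erf114 libraries alone the block gave 1991 changed genes (1204 higher, 787 lower).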
